A study of Mus musculus with 3 samples.

Results

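Heterotrimeric G proteins and the genes that switch them off were examined in the endothelium of adult mouse glomeruli, the tufts of capillaries in which the kidney filters blood. Members were defined by gene symbol and not by a measured value: alpha, beta and gamma subunits, regulators of G protein signaling (Rgs), G protein coupled receptor kinases (Grk) and beta arrestins (Arrb). It held 60 genes of 19938 measured, with 62 probe sets of 21789. The cells came from Tie2-GFP transgenic mice, on a mixed and mainly CD-1 background and of unknown sex, which carry green fluorescent protein under the promoter of Tek (Tie2), a receptor gene of endothelium. That promoter is also active in some blood cells. Glomeruli were sieved from the cortex and dissociated, and the GFP positive cells were taken by cell sorting. Each of the 3 arrays, called replicates 1, 3 and 5, held RNA of 1 adult kidney. All arrays form 1 group without treatment, so there is no comparison between groups. Each gene was instead set against a level of 100, which is 6.64 on the log2 scale and is called the detection level here. The number is that of a filter the study set on raw values.

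A G protein coupled receptor that binds its ligand makes an alpha subunit exchange GDP for GTP, and the alpha subunit and the beta-gamma dimer then part and act on separate effectors. Alpha subunits fall into classes: Gs raises cyclic AMP, Gi lowers it, Gq activates phospholipase C, and the Gna12 and Gna13 class acts on the actin cytoskeleton. Rgs proteins end the signal by speeding GTP hydrolysis, while receptor kinases and beta arrestins silence the receptor itself. In endothelium these proteins carry signals of thrombin, sphingosine 1-phosphate, endothelin and chemokines, which bear on barrier function and vessel tone.

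Values below are log2 signals on each array, followed where useful by the mean ± SD (n = 3). A gene is called above or below the level by limma with an adjusted p under 0.05, and neither otherwise. Of the 62 probe sets, 15 (24.2%) were called above the level, against 15.8% of all probe sets tested. A further 44 (71%) were called below, against 72.5% of all, and 3 were called neither. With limma's default variance prior 15 were above (15.9% of all) and 43 (69.4%) below (73% of all). The median level was 4.92 over these probe sets and 5.04 over all probe sets tested. Per gene, 15 of 60 were above, 42 below and 3 neither. Counts of genes here and below take the probe set with the highest mean. The shares of all probe sets beside them are made without that choice, so the units differ. Of the members, 2 (Rgs3 and Gnb1l) had several probe sets. Signals of different probe sets are not on a common scale of abundance, so genes are not ranked by level, and medians over probe sets are descriptions. The calls use the same level for every probe set and share this limit, also where calls of different genes are set side by side. For 37 of the 62 probe sets (59.7%) the value was the same on all 3 arrays, against 54.1% of all, so their SD is 0 and their p-value rests on the spread of other probe sets.

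**Figure D1:**
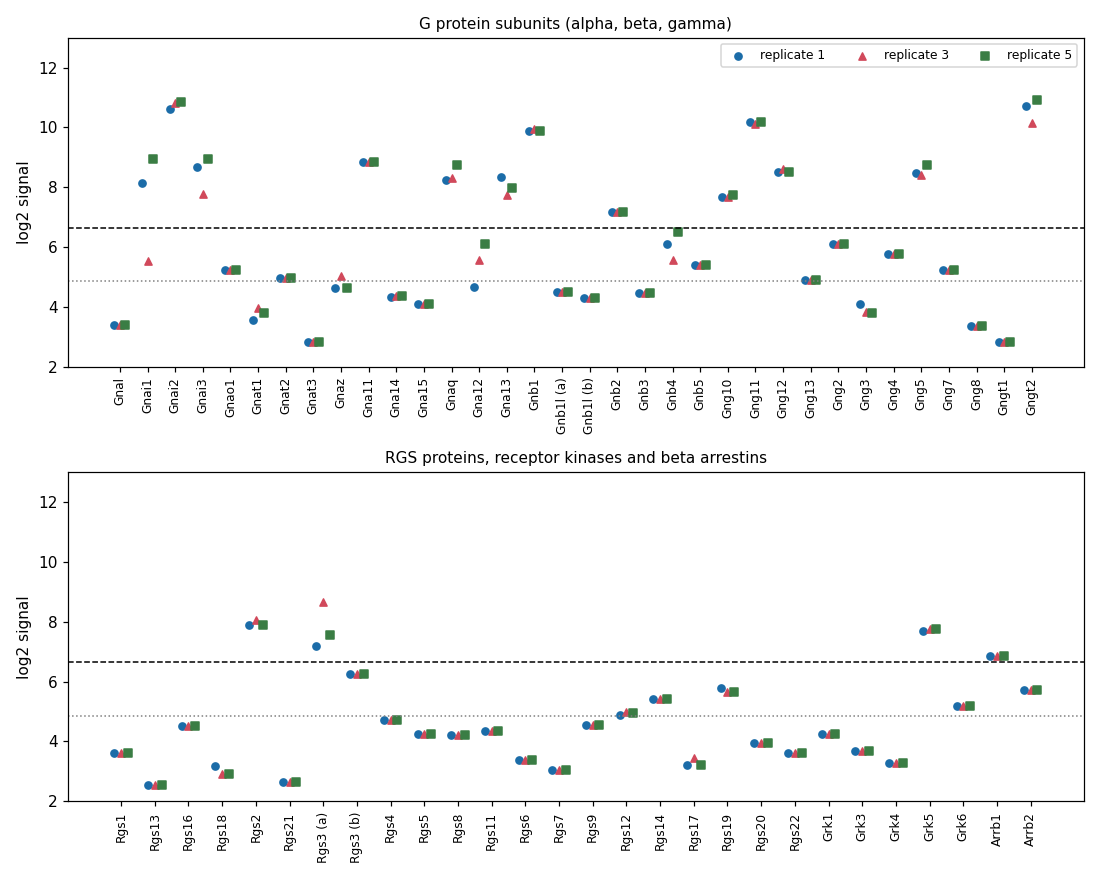
Log2 signal (vertical axis) of each probe set in the set on replicates 1, 3 and 5 (points), by role along the horizontal axis. The dashed line is the detection level of 6.64 and the dotted line is a lower level of 4.85 taken from olfactory receptor genes, and a and b mark the probe sets of genes that have several. All 3 values of Gnai2, Gnb1, Gng11 and Gngt2 lie far above the dashed line, and most Rgs genes lie below it on each array.

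The cells were endothelial by their markers. All 10 endothelial genes listed were called above, among them Pecam1 at 10.26 ± 0.21, Cdh5 at 10.75 ± 0.32 and Ehd3, a gene of glomerular endothelium, at 10.37 ± 0.77. Tek is also on the list, and the cells were sorted by GFP under its promoter. The study had reported Ehd3 as raised in glomerular endothelium, so the calls of Tek and Ehd3 are not independent support. All marker lists were chosen with earlier results of these data known, so the other marker calls are not fully independent either. No marker of another cell type was called above, by this fit or with limma's default variance prior, and all 54 measured were called below: 11 of pericytes, mesangial cells and smooth muscle, 6 of podocytes, 11 of leukocytes, 7 of platelets, 6 each of the proximal tubule and of the distal nephron, and 7 of neurons and retina. Their means ranged from 2.97 to 5.90. With the default prior 52 of the 54 were below and 2, Itga8 and Ppbp, were neither. Against a lower level of 28.9, set by olfactory receptor genes, 22 of the 54 fell below, 20 were neither and 12 were called above. Of all probe sets tested, 36.2% were below that level and 44.4% above. Nphs1, Wt1, Cd68, C1qa and Notch3 were among the markers above it. Pdgfrb was at 4.22 ± 0.25 and Cspg4 at 4.54 for pericytes, Nphs1 at 5.47 and Wt1 at 5.24 for podocytes, and Ptprc at 4.77 ± 0.18 and Cd68 at 5.29 ± 0.03 for leukocytes. Pf4 was at 3.38 and Itga2b at 5.01 for platelets, Slc34a1 at 5.37 and Lrp2 at 4.33 for the proximal tubule, Umod at 5.15 and Slc12a1 at 3.56 for the distal nephron, and Snap25 at 4.19 ± 0.03 and Syt1 at 4.55 for neurons. Of 7 ubiquitous genes, 6 were above, with Actb at 12.35 ± 0.22 and Ppia at 11.06 ± 0.13, and Tbp was called neither at 6.89 (adjusted p = 0.111). In bulk samples, fewer cells of a type and less RNA per cell cannot be told apart. The medians of the 3 arrays over all probe sets lay between 4.79 and 4.85.

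Of 15 alpha subunit genes, limma called 5 above the level, 9 below and 1 neither, against 15.8%, 72.5% and 11.6% of all probe sets. The Gi class held 2 of the 5 alpha genes above. Gnai2, an inhibitory alpha subunit found in most tissues, had 10.61, 10.82 and 10.85 on replicates 1, 3 and 5 (adjusted p = 6.88e-05). Gnai3, its close relative, had 8.67, 7.76 and 8.94 (adjusted p = 0.00362). Every array was thus above the level for both genes, and replicate 3 was the low array for Gnai3. Gnai1, the remaining Gnai gene, had 8.15, 5.52 and 8.94. It was called neither (7.54 ± 1.79, 95% interval 5.50 to 9.58, adjusted p = 0.307), because replicate 3 lay under the level while the other 2 arrays lay well over it. Without replicate 3 it was called above (adjusted p = 0.00268), and without replicate 1 or 5 it was again called neither.

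The other genes of the Gi class were called below. They were Gnao1, the alpha subunit of neurons, at 5.23 on each array, Gnaz, known from neurons and platelets, at 4.75 ± 0.23, and the sensory transducins. Gnat1 of rods was at 3.77 ± 0.19, Gnat2 of cones at 4.97 and Gnat3 of taste cells at 2.83. Gnal, the Gs type subunit of olfactory neurons, was below as well at 3.38. Gnas, the general Gs subunit, has no probe set that names it alone and was not analysed here, so the Gs class is represented only by Gnal.

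Of the Gq class, the broadly used pair was above and the others were below. Gna11 had 8.86, 8.84 and 8.86 on replicates 1, 3 and 5 (adjusted p = 0.000121). Gnaq had 8.24, 8.31 and 8.75 (adjusted p = 0.000599). Both lay over the level on all arrays, and the arrays of Gna11 differed by 0.016. Gna14 was below at 4.36 ± 0.03, and so was Gna15, a subunit of blood cells, at 4.10 on each array.

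In the class that acts on the cytoskeleton, Gna13 had 8.35, 7.74 and 7.96 on replicates 1, 3 and 5 (adjusted p = 0.00184). Gna13 is needed for blood vessel formation in the mouse embryo. Its relative Gna12 had 4.66, 5.57 and 6.11, with every array under the level. It was called below (5.45 ± 0.74, adjusted p = 0.0237), but neither with limma's default variance prior (adjusted p = 0.109).

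Among 6 beta subunit genes, 2 were called above, 3 below and 1 neither, against 15.8%, 72.5% and 11.6% of all probe sets. Gnb1, a beta subunit of most cells, had 9.86, 9.95 and 9.87 on replicates 1, 3 and 5 (adjusted p = 6.9e-05). Gnb2 had 7.16 on each array (adjusted p = 0.0142). Both lay over the level on all arrays, and the interval of Gnb2 ran from 6.83 to 7.49. Gnb4 had 6.10, 5.55 and 6.51, all under the level, and was called neither (adjusted p = 0.0671, interval 5.42 to 6.68). It was called below without replicate 5 (adjusted p = 0.0278). The annotation places Gnb4 so that it overlaps Mfn1, and whether the probe sets share signal was not tested. Gnb3, a subunit of cones, was at 4.45, and Gnb5, the partner of the R7 class of Rgs proteins, at 5.38. Gnb1l, a WD repeat gene that resembles beta subunits, was at 4.48 and 4.29 in its 2 probe sets. All 3 of these genes were called below.

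Gamma subunits anchor the dimer in the membrane by a lipid tail. Of 12 measured, 5 were called above and 7 below, against 15.8% and 72.5% of all probe sets. Gng11, which is farnesylated and widely used outside the nervous system, had 10.18, 10.11 and 10.17 on replicates 1, 3 and 5 (adjusted p = 6.88e-05). Gngt2, named as the gamma subunit of cone photoreceptors, had 10.71, 10.16 and 10.92 (adjusted p = 0.000105). Both were far over the level on every array, while the retinal genes Sag, Pde6b and Crx, with Gnat2 and Gnb3, were called below. Gngt2 overlaps Abi3 in the annotation. The probe set of Abi3 itself was at 7.29 ± 0.01, and whether it and that of Gngt2 share signal was not tested.

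The other gamma genes above were of broad use. Gng12 had 8.51, 8.60 and 8.51 on replicates 1, 3 and 5 (adjusted p = 0.000192). Gng5 had 8.47, 8.42 and 8.75 (adjusted p = 0.000289), and Gng10 had 7.68, 7.67 and 7.73 (adjusted p = 0.00126). Their arrays lay within 0.33 of each other, and none came under the level. The annotation also lists a pseudogene of Gng5 and pseudogenes of Gnb1, so the source of those signals is uncertain. The gamma genes below were Gng2 at 6.11, Gng4 at 5.77, Gng7 at 5.22, Gng13 at 4.90, Gng3 at 3.91 ± 0.17, Gng8 at 3.34 and Gngt1 of rods at 2.83. Several of these, such as Gng3 and Gng4, are known mainly from neurons, and Gng13 from taste and retinal cells. The adjusted p of Gng2 was 0.0124.

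**Figure D2:**
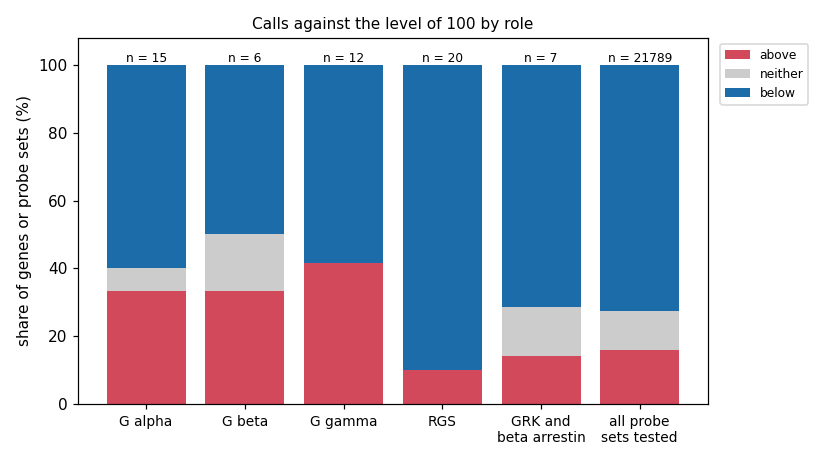
Share (%) of genes called above, neither or below the level of 100 by limma for each role (bars, number of genes over each bar), with the share of all 21789 probe sets tested at the right. Of the gamma subunit genes 5 of 12 were above, and of the Rgs genes 2 of 20, against 15.8% of all probe sets.

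Of the 20 Rgs genes, 2 were called above the level and 18 below, with a median of 4.23. Over all probe sets 15.8% were above and 72.5% below, with a median of 5.04. Both genes above belong to the R4 class of small Rgs proteins. Rgs2, which acts mainly on Gq and whose loss in mice raises blood pressure, had 7.89, 8.07 and 7.89 on replicates 1, 3 and 5 (adjusted p = 0.000711). All arrays were over the level. Rgs3 has 2 probe sets that were called on opposite sides. The first had 7.20, 8.67 and 7.55 (7.81 ± 0.77, adjusted p = 0.0289), all over the level with replicate 3 highest. The second had 6.25 on each array and was called below (adjusted p = 0.032). The call of the first was lost with limma's default variance prior (adjusted p = 0.122), with the median over both probe sets (adjusted p = 0.123) and without replicate 5 (adjusted p = 0.063). The gene has several transcripts, and which of them each probe set reads is not known here, so the call of Rgs3 is uncertain.

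The other 8 genes of the R4 class were called below, and 7 of the 10 genes in this class had identical values on all arrays. Rgs5, a marker of pericytes, was at 4.24 and Rgs4 at 4.73 on each array. These values stood beside the low signals of the pericyte genes given above. Rgs16 was at 4.51 and Rgs8 at 4.22. Rgs1 at 3.62 and Rgs13 at 2.56, both known from lymphocytes, and Rgs18 of platelets at 2.99 ± 0.16 were below, as were the markers of those cells. Rgs21 was at 2.64.

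All 4 genes of the R7 class, which work in neurons and retina together with Gnb5, were below, with means between 3.04 and 4.55: Rgs6, Rgs7, Rgs9 and Rgs11. Of the R12 class, Rgs12 at 4.95 ± 0.05 and Rgs14 at 5.43 were below, and Rgs10 was not analysed here. The RZ class, which prefers Gi type subunits, held Rgs17 at 3.29 ± 0.13, Rgs19 at 5.71 ± 0.07 and Rgs20 at 3.94, all below, as was Rgs22 at 3.62.

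Receptor kinases and arrestins gave 1 call above in 7 genes, against 15.8% of all probe sets. Grk5, a kinase that phosphorylates active receptors, had 7.68, 7.77 and 7.77 on replicates 1, 3 and 5 (adjusted p = 0.00111), and no array came under the level. Grk1, a kinase of photoreceptors, was at 4.24, Grk3 at 3.67, Grk4, known from testis, at 3.30 and Grk6, known from immune cells, at 5.20, all called below. Grk2 was not analysed here. Arrb1, beta arrestin 1, had 6.88 on each array and was called neither (adjusted p = 0.131, interval 6.55 to 7.20). With limma's default variance prior it was called above, and also when arrays were centred on their medians (adjusted p = 0.00275). Arrb2 was below at 5.73.

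Genes of this family often lie next to each other, in several cases through tandem duplication. Not all neighbours are relatives: Gna13 and Rgs9 are an alpha subunit and an Rgs protein. Members formed 13 neighbouring pairs, with at most 1 coding gene between them, in the RefSeq annotation of GRCm38.p6. In 7 pairs a gene called above stood beside a gene called below, in 1 (Gnai1 beside Gnat3) a gene called neither stood beside a gene below, and in 5, all of Rgs genes, both were below. The 7 pairs were Gnai2 with Gnat1 on chromosome 9, Gnai3 with Gnat2 on chromosome 3, Gna11 with Gna15 on chromosome 10, Gnaq with Gna14 on chromosome 19, Gng11 with Gngt1 on chromosome 6, Gna13 with Rgs9 on chromosome 11 and Rgs2 with Rgs13 on chromosome 1. Rgs2 heads a row of neighbours on chromosome 1 in which Rgs13, Rgs1, Rgs21 and Rgs18 were all called below. How often neighbouring genes outside this family differ in call was not tested.

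**Figure D3:**
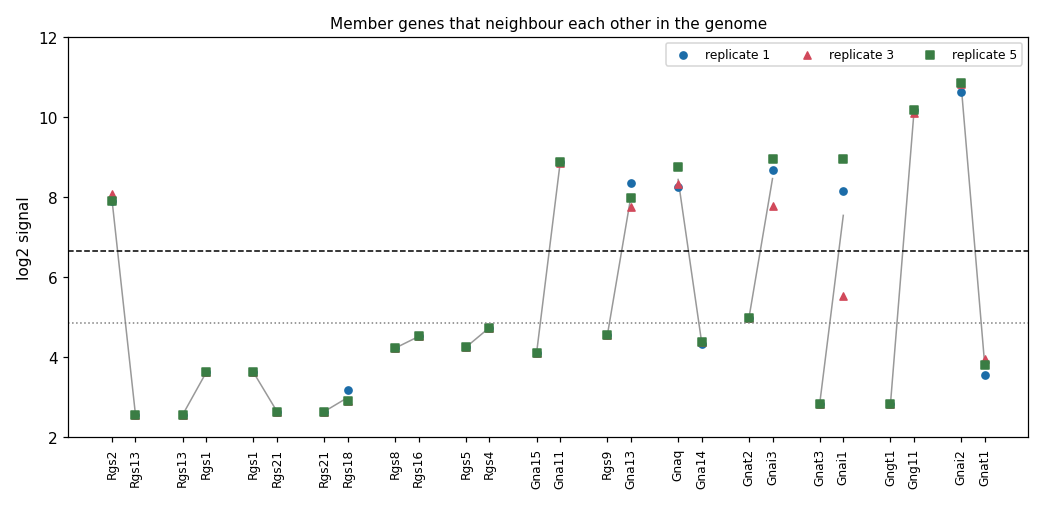
Log2 signal (vertical axis) on replicates 1, 3 and 5 (points) of genes that neighbour each other, with a line joining the means of each pair. The dashed line is the detection level of 6.64 and the dotted line is 4.85. In 7 of 13 pairs the line crosses from a gene called above to a gene called below.

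The 150 bases just before the start site are shown for 4 of these pairs, in which close relatives with a single window each were called on opposite sides, from RefSeq on GRCm38.p6. They are written 5′ to 3′ on the strand of the gene, and capitals mark CpG dinucleotides.
Gnai3, chr3:108146153-108146302, minus strand: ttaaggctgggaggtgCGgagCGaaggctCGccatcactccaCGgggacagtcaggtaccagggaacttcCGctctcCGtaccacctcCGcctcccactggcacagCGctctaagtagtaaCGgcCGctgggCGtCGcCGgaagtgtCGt
Gnat2, chr3:108092916-108093065, plus strand: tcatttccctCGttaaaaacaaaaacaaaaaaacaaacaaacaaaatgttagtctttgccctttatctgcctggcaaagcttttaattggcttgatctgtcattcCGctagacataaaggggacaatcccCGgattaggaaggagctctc
Gna11, chr10:81545163-81545312, minus strand: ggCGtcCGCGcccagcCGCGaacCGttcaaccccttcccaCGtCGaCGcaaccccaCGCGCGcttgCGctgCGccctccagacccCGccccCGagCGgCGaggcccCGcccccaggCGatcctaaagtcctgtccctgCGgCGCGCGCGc
Gna15, chr10:81524226-81524375, minus strand: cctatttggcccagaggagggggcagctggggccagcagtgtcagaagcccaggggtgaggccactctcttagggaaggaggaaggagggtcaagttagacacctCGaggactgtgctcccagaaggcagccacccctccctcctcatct
Gnaq, chr19:16132534-16132683, plus strand: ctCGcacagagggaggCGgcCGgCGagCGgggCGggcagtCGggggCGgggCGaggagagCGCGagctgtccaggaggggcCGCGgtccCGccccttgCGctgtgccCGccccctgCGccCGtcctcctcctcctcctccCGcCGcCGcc
Gna14, chr19:16435517-16435666, plus strand: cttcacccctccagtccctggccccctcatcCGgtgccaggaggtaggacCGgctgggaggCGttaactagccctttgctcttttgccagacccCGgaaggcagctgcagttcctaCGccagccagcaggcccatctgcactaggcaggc
Rgs2, chr1:144004150-144004299, minus strand: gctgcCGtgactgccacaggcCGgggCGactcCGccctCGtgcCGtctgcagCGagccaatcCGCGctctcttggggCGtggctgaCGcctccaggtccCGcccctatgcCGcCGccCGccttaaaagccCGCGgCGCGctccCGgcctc
Rgs13, chr1:144177373-144177522, minus strand: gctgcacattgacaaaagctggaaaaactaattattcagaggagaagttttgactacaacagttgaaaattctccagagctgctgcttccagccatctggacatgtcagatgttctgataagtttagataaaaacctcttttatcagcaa
The gene called above had more CpG dinucleotides than its neighbour in each of these pairs: 14 in Gnai3 and 3 in Gnat2, 25 in Gna11 and 1 in Gna15, 21 in Gnaq and 5 in Gna14, and 20 in Rgs2 and 0 in Rgs13.

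Promoters of broadly used genes are often rich in CpG, and those of tissue specific genes less so. A promoter was at hand for 43 of the 60 genes. In the 250 bases before the start site, the median number of CpG dinucleotides was 28 for the 12 genes called above (range 5 to 44) and 8.5 for the 30 called below (range 0 to 36). Over all genes tested it was 18 for those called above and 8 for those called below, so the medians ran in the same direction over all genes. Gnao1 with 36, Rgs17 with 27 and Grk6 with 23.7 were called below despite many CpG, and Rgs3 with 5 was called above with few. The GC box, GGGCGG on either strand, which holds a CpG itself, was in 9 of the 12 genes above (75%) and in 13 of 30 below (43.3%). These shares lay near those of all genes called above (67.1%) and all called below (42.9%). The core CCGGAA of ETS factor sites, which also holds a CpG, was found on either strand in 3 of 43 (6.98%), against 13.6% of all genes in the promoter table. They were Gnai3, the 1 of 12 genes above (8.33%, against 28.9% of all genes called above), and Gna14 and Rgs19, the 2 of 30 below (6.67%, against 14.3% of all called below). TATAAA on either strand was found in 5 of 43 (11.6%), against 14.3% of all. A match describes letters and is no evidence of a bound factor.

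**Figure D4:**
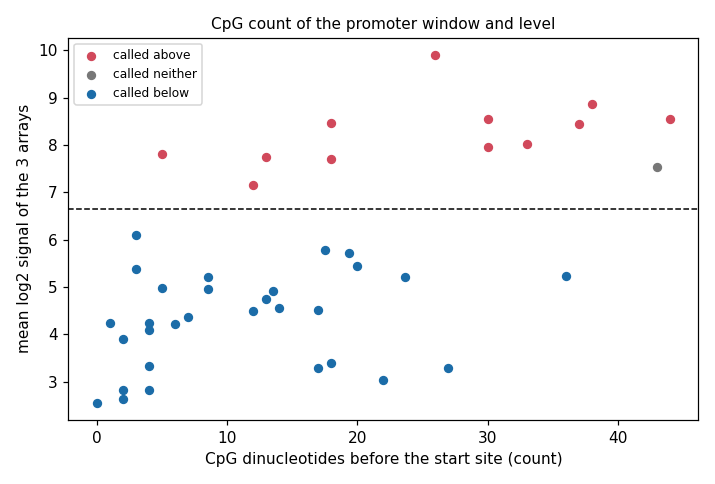
Number of CpG dinucleotides in the 250 bases before the start site (horizontal axis) and mean log2 signal of the 3 arrays (vertical axis) for the 43 genes with a promoter window (points, coloured by call). The dashed line is the detection level of 6.64, and heights of different genes are not on a common scale of abundance. Genes above the line have a median of 28 CpG when called above, and those called below a median of 8.5.

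Between arrays, 4 of the 62 probe sets (6.45%) differed by over 1 on the log2 scale, against 5.73% of all probe sets tested. They were Gnai1 with a range of 3.42, Rgs3 with 1.47, Gna12 with 1.46 and Gnai3 with 1.18. Replicate 3 was lowest for Gnai1 and Gnai3 and highest for Rgs3, while replicate 1 was lowest for Gna12 and Rgs3. Of the 16 probe sets with 3 distinct values, 8 were lowest on replicate 3, 7 were lowest on replicate 1, and 9 were highest on replicate 5. Over all such probe sets, 41.4% were lowest on replicate 3, 30.7% lowest on replicate 1, and 34.9% highest on replicate 5. Nostrin, another gene of glomerular endothelium, was also lowest on replicate 3, with 9.67, 8.77 and 9.83 on replicates 1, 3 and 5. The summed signal of the 10 endothelial markers was 18374, 12117 and 20881. Mgp, a gene of larger vessels, had 5.37, 10.18 and 4.80. The part of these differences in the values of Gnai1, Gnai3 and Rgs3 was not tested. Summed signals of pericyte, podocyte, leukocyte and platelet markers stayed within 294 to 342, 206 to 226, 256 to 280 and 224 to 256. All these markers were called below the level, so a fall in such cells could hardly show in the sums. Itga8, in the list of pericytes and mesangial cells, had 6.08, 4.94 and 4.75 on replicates 1, 3 and 5.

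**Figure D5:**
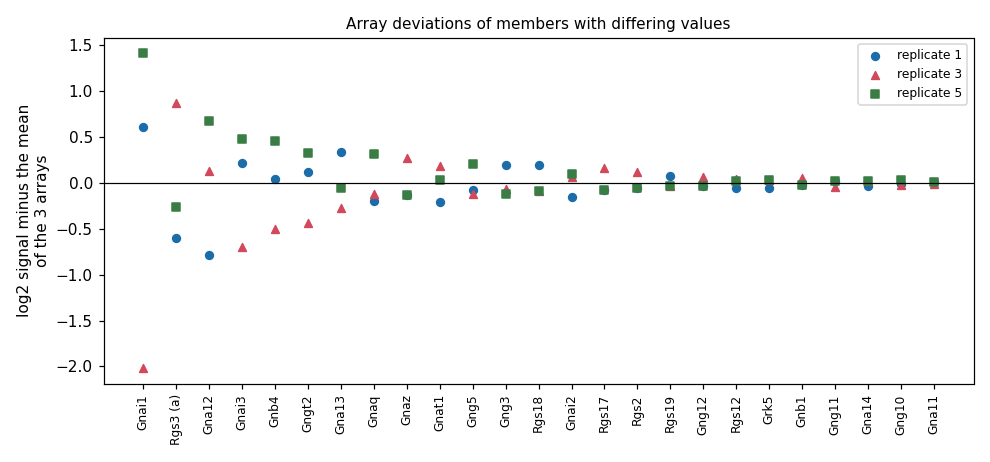
Log2 signal of each array minus the mean of the 3 arrays (vertical axis) for the 25 probe sets with differing values, ordered by range. Replicate 3 lies lowest for Gnai1 and Gnai3 and highest for Rgs3, and values of Gna11, Gng10, Gng11 and Gnb1 lie close to 0.

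Partners of these proteins were examined in 6 lists of other genes. Of 55 measured, 15 were called above, 31 below and 9 neither, while of all probe sets 15.8% were above, 72.5% below and 11.6% neither. Upstream, 6 of 17 endothelial receptors were above: S1pr1, a sphingosine 1-phosphate receptor, at 9.49, F2r, a thrombin receptor, at 7.75 ± 0.01, Ednrb, an endothelin receptor, at 10.53 ± 0.63, Calcrl, which binds adrenomedullin, at 11.73, the ADP receptor P2ry1 at 7.64 ± 0.43 and the chemokine receptor Cxcr4 at 7.77 ± 0.50. The calls of P2ry1 and Cxcr4 were lost with limma's default variance prior. S1pr3, another sphingosine 1-phosphate receptor, was below at 4.37 ± 0.19, and F2rl3, another thrombin receptor, was below at 5.52 ± 0.55 and neither with the default prior. Among the effectors of Gq, Plcb1 at 7.90 and Plcb3 at 7.05 were above, Plcb2, known from blood cells, was below, and Plcb4 was neither. Of 9 adenylyl cyclases, which Gs and Gi control, Adcy4 at 7.44 ± 0.13 and Adcy6 at 7.78 ± 0.19 were above and the other 7 below.

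Of 7 exchange factors of small GTPases, Arhgef12, which Gna13 activates, at 8.79 ± 0.23 and Akap13 at 8.78 ± 0.06 were above, 2 were below and 3 neither. Among 9 effectors of the beta-gamma dimer, Prex2, an exchange factor for Rac, was above at 8.57 ± 0.21, and 7 were below, among them Pik3cg at 4.53. Pik3cb at 6.91 was called neither, and above with the default variance prior. Of 9 chaperones and exchange factors of alpha subunits, Ric8b, the chaperone of Gs type subunits, at 7.28 and Ccdc88a at 7.87 were above, and Ric8a was below at 5.58. Rgs7bp and Rgs9bp, anchors of the R7 class, were below at 3.84 and 5.11.

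The detection level sets these counts. A lower level of 28.9, or 4.85 on the log2 scale, is the 95th percentile over 1035 probe sets for olfactory receptors. Against it 26 genes were called above and 25 below, with 9 called neither, while 44.4% of all probe sets were above and 36.2% below. The 25 genes below that level too included Rgs5, Rgs1, Rgs13, Rgs18, Gna14, Gna15, Gnat1, Gnat3 and Gngt1. At a level of 200, 9 genes were above: Gnb2 was called below, and the calls of Rgs2, Gna13, Grk5, Gng10 and Rgs3 were lost. The share of all probe sets above 200 was not computed, so that count has no background beside it. A gene called below 100 is not shown to be silent.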

How the data were processed

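RNA of the sorted cells went through a single amplification and onto Affymetrix Mouse Gene ST arrays. The values are log2 signals per probe set as the authors deposited them. Affymetrix Expression Console is named in the submitters' processing notes, without a version, and RMA with GeneSpring in the study's text. The sources used here do not say which arrays shared a normalization. The study set its filter of 100 on raw expression values, and how those relate to the deposited scale is not stated. The number of arrays limits the precision.

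Of 35557 probe sets, the 21789 that name 1 gene in the platform annotation were tested. All 60 genes matched RefSeq (GRCm38.p6) by Entrez identifier, and the probe set with the highest mean stood for a gene. The mean of each was compared with log2 of 100 in an intercept model of limma 3.58.1 (R 4.3.3). Tests were two-sided, and p-values were adjusted over all probe sets by Benjamini-Hochberg. Probe sets with identical arrays (within 1e-09) pull the default variance prior towards 0, so it was estimated on those 4406 whose 3 values all differ (SD 0.288 and 2.03 degrees of freedom). The fit was tested on simulated data. Of 100 simulated probe sets whose true mean was at the level, it called 7% above and 6% below. The default prior called 26% of them above and 24% below. The simulated spreads were drawn from the prior of this fit. Probe sets with identical arrays were given 1 shared value off their true mean. That setting favours this fit over the default prior, so the simulation cannot decide between the 2 priors. Within it, calls close to the level were the least certain. Intervals are 95% intervals of this fit. The study describes its samples as biologically independent, and the labels give a kidney per array but not whether the mice differed. The p-values cover the spread among these arrays alone.

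The alternatives were limma's default prior and its robust form, levels of 50, 200 and the olfactory receptors, centring of arrays, a filter on low values, the median over probe sets and leaving out each array. Values on each array were given for genes called above, those ranging over 1 log2, those whose call differs between the priors and those whose probe sets disagree. Gnb4, called neither, and the partner genes called neither or below that are named were chosen after their values were seen. Protein features were planned but not analysed here, and neighbouring genes and promoter windows (RefSeq) were added after the values were seen. Members and lists were chosen with earlier results of these data known.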

Additional observations from a re-analysis of the deposited data

How the results depend on the processing

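The level decides most of what moved. At the olfactory receptor level of 28.9, 26 genes were called above and 25 below, with 35 partner genes above and 8 below, and 22 markers of other cell types below. Of all probe sets tested, 44.4% were above that level and 36.2% below. Of the genes below 100, the difference from that level was then positive for Gng7 (0.36), Arrb2 (0.88), Gng4 (0.92), Rgs14 (0.58), Grk6 (0.35), Gng2 (1.25), Gng13 (0.049), Rgs19 (0.86), Gnat2 (0.12), Rgs12 (0.091), Gna12 (0.59), Gnao1 (0.38) and Gnb5 (0.53), and for Gnb4 (1.20), which was called neither. At a level of 50, 27 partner genes were above and 18 below, and the difference was positive for Arrb2 (0.090), Gng4 (0.13), Gng2 (0.46), Rgs19 (0.066) and Gnb4 (0.41). At a level of 200, 9 genes and 6 partner genes were above, and the difference was negative for Gnai1 (-0.11), Gnb2 (-0.48) and Arrb1 (-0.77). Gnb2, Arrb1 and Gnb4 were then called below, and Rgs2 (adjusted p = 0.0725), Gna13 (0.102), Grk5 (0.46), Gng10 (0.702) and Rgs3 (0.657) were called neither. Shares of all probe sets were not computed at 50 and 200, so the counts at these levels have no background beside them. The filter on low values left 13 genes, 19 partner genes and 18 markers of other cell types called below, since fewer were tested. Without replicates 1, 3 or 5 between 14 and 16 genes were called above and 42 to 43 below, and 1 to 3 differed by over 1 between arrays, with 1 without replicate 3 and 2 without replicate 5, against 4 with all arrays. Leaving out an array can only narrow a range. The default variance prior and its robust form left 15 above and 41 below. Under both, Rgs3 and Gna12 lost their calls and Arrb1 was called above, as it was with centring. A prior or a filter leaves each mean, and so its direction, as it is. No gene changed direction under the centring, the median over probe sets or the removal of an array. No paired analysis was possible because all arrays form 1 group.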
